A study of Homo sapiens with 8 samples.

Results

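Wnt ligands, their receptors and the genes that regulate the pathway were followed across 2 breast epithelial cell lines and 2 vectors. They were taken as the genes whose symbol belongs to the WNT, FZD, SFRP, DKK, TCF7/LEF1, LRP5/6, AXIN, LGR, DVL, KREMEN, NKD, PRICKLE, CELSR and related families, antisense and divergent transcripts left out. This gave 45 of the 13771 genes in the expression table. The rule reads the symbol alone and none of the values. RefSeq holds 78 protein-coding genes that fit the same symbols, and the other 33 were not analysed here. By role, the table held 6 of 19 ligands, 2 of 3 ligand-processing genes, 12 of 15 receptors, 3 of 5 R-spondin receptors and receptor ubiquitin ligases, 4 of 13 extracellular or membrane inhibitors, 5 of 8 cytoplasmic genes, 4 of 4 nuclear factors and 9 of 11 planar polarity genes.

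RNA was sequenced from MCF10A, a non-tumorigenic human breast epithelial line, and from DCIS.COM, a line of the MCF10 series used as a model of ductal carcinoma in situ. Each line had been stably transduced with the lentiviral pCDH-HOTAIR vector or with pCDH-empty and selected with puromycin, which all 4 groups share, and each group had 2 libraries. HOTAIR is a long non-coding RNA of the HOXC cluster. MCF10A was kept with horse serum, EGF, hydrocortisone, insulin and cholera toxin and DCIS.COM with horse serum alone, so that line and medium cannot be told apart. The labels do not say that the 2 libraries of a group came from separate cultures, so p-values measure the spread between these libraries, which may be technical.

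Wnt ligands are lipid-modified secreted proteins that bind Frizzled receptors together with the co-receptors LRP5 or LRP6. In the β-catenin branch this stops the destruction complex of APC, AXIN and its kinases from marking β-catenin for degradation, and β-catenin then binds the TCF/LEF factors on DNA. Other ligands act through ROR and RYK receptors or the planar polarity proteins, without β-catenin. In the breast, Wnt signals are known for their part in duct development and in the maintenance of basal progenitors.

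The deposited values are log2 CPM, that is, read counts scaled by library depth, and the whole reads behind them were recovered. The libraries held 19306864 to 34884841 reads. As a check of the labels, reads of HOTAIR numbered 45 and 40 in MCF10A with pCDH-empty against 4614 and 4827 with pCDH-HOTAIR, and 119 and 140 against 7166 and 6385 in DCIS.COM. RN7SL1 and RN7SL2, abundant small cytoplasmic RNAs, took 18.9% of the reads of DCIS.COM pCDH-empty 1 and 11.1 to 15.0% elsewhere. That library also stood apart for several genes below, where values are given with and without it. All 5 breast epithelial markers and all 6 basal markers fixed for the check were in the table, and they moved with the line. With the empty vector 4 of the 5 epithelial markers were higher in DCIS.COM and CDH1 was lower (-0.59 on the log2 scale), with KRT8 at 2.35 and EPCAM at 2.33. Of the basal markers 2 were higher, ITGB4 at 2.15 and TP63 (mean log2 CPM 3.68 in MCF10A and 4.43 in DCIS.COM). The 3 lower were KRT14 at -4.66, KRT5 at -2.61 and KRT17 at -2.56, and ITGA6 was not called (mean log2 CPM 10.09 and 10.49). The summed level of the basal markers ran from 10300 to 11760 CPM in MCF10A, where KRT5 and KRT17 were the highest, and from 4039 to 4582 CPM in DCIS.COM. Of the luminal markers 3 of 6 were in the table. GATA3 (0.84) and FOXA1 (1.66) were higher in DCIS.COM and ESR1 (-0.45) was not called. Of the endothelial markers PECAM1 was there (1 of 4, log2 difference 2.32) and of the leukocyte markers CD68 (1 of 4, -2.00). Of the fibroblast markers 2 of 7 were in the table, COL1A1 and COL1A2, with a summed level of 8.47 to 10.2 CPM in MCF10A with pCDH-empty, 17.1 to 18.1 CPM there with pCDH-HOTAIR and 1.04 to 1.66 CPM in DCIS.COM. The part of these markers in the results was not tested.

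The promoter windows of 4 genes with large differences between the lines are shown for their sequence: DKK1, WNT5A and WNT7A, lower in DCIS.COM, and TCF7L1, higher there. For WNT7A and TCF7L1 the filter of the table set that direction, as given below. Each is the 250 bases before a RefSeq start of the gene, placed on GRCh37 by an exact match and written 5′ to 3′ on the strand of the gene. Capitals mark a TCF/LEF motif, searched as CTTTGAT or CTTTGAA on both strands. The DKK1 window is at chr10:54073791-54074040 (plus strand) and lies within exons of PRKG1-AS1, a gene of the opposite strand. The WNT5A window, before one of its RefSeq starts, is at chr3:55515427-55515676 (minus strand), that of WNT7A at chr3:13921569-13921818 (minus strand) and that of TCF7L1 at chr2:85360265-85360514 (plus strand), and these 3 hold no annotated exon.
DKK1: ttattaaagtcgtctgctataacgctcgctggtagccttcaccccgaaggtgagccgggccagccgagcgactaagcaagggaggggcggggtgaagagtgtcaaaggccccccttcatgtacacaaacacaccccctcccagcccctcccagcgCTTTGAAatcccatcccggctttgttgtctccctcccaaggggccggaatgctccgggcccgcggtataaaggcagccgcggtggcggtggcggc
WNT5A: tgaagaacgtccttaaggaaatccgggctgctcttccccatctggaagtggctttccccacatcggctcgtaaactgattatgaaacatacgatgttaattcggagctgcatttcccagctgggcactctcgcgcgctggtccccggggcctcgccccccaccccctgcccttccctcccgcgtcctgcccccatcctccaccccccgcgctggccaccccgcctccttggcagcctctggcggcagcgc
WNT7A: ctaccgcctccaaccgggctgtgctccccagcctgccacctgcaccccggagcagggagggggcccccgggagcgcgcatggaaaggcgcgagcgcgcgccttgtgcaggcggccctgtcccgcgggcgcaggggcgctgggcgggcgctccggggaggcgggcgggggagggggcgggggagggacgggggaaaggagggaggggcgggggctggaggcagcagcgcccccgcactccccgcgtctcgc
TCF7L1: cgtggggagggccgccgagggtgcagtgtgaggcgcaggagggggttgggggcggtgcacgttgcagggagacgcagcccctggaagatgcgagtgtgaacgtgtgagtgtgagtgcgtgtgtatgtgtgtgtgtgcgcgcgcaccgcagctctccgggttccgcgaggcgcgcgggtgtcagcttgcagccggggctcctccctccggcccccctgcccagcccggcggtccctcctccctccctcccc

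Of 33 members with an entry in the promoter table, DKK1 was the 1 with the motif, which stood in 1 of 45 member windows (2.22%) and in 5.94% of all 35116 windows. A match describes these letters and is not evidence of binding. The WNT7A window was 80.4% G or C, that of TCF7L1 72.0%, that of WNT5A 64.4% and that of DKK1 62.8%.

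The first comparison asks how the pathway genes differ between the lines. With the empty vector, 26 of the 45 genes were called (limma, Benjamini-Hochberg adjusted p under 0.05 and a fold of at least 1.5), against 46.3% of all genes: 15 were higher in DCIS.COM (22.5% of all genes) and 11 lower (23.8%). With HOTAIR, 27 were called (43.7% of all genes), 16 higher (22% of all genes) and 11 lower (21.7%). These 2 comparisons use different libraries. In both, 25 members were called in the same direction (38.4% of all genes), and 10 of them also had a log2 difference of at least 2 in size in both (11.7% of all genes). The table holds genes above 0.5 CPM in at least 2 libraries. LEF1, TCF7 and TCF7L1 were under 0.5 CPM in every MCF10A library, and WNT7A and WNT10A in every DCIS.COM library. A gene as low in both lines would be absent, so this filter set their direction. The 4 DCIS.COM libraries lay wholly above the 4 MCF10A libraries for 21 members and wholly below for 15, and overlapped for 9. Separation of this kind was seen for 70.2% of all genes. The median log2 difference, DCIS.COM minus MCF10A, was 0.22 over the members with the empty vector and 0.28 with HOTAIR, and 0.00 over all genes in both.

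**Figure D1:**
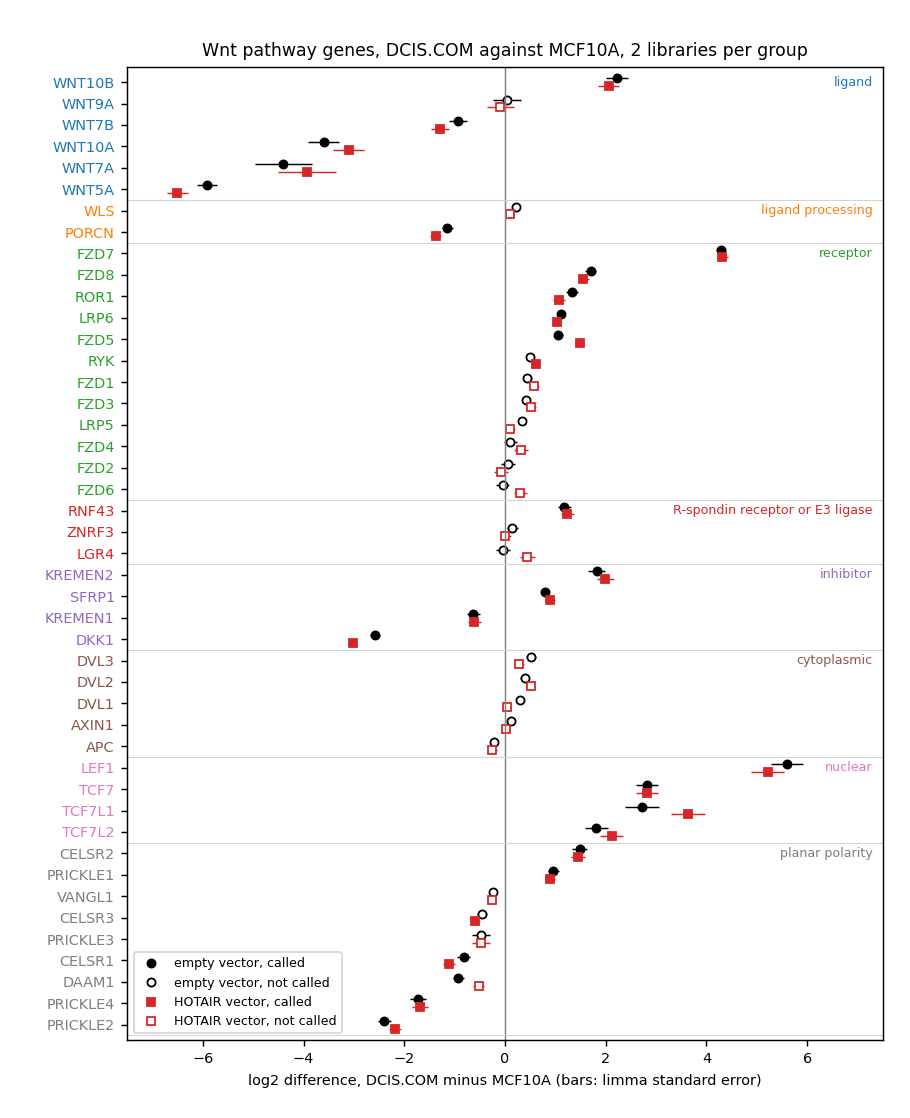
log2 difference between DCIS.COM and MCF10A for the 45 Wnt pathway genes grouped by role, with the limma standard error, for the empty vector (circles) and HOTAIR (squares), 2 libraries per group; filled marks were called. All 4 nuclear factors lie to the right of 0, and 4 of the 6 ligands lie to the left, with WNT5A at -5.92 and -6.51. For LEF1, TCF7, TCF7L1, WNT7A and WNT10A the filter of the table set the side.

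Of the 6 ligands, 4 were lower in DCIS.COM with both vectors (WNT5A, WNT7A, WNT10A and WNT7B), WNT10B was higher and WNT9A was not called. For WNT7A and WNT10A the filter of the table had set that direction, as given above. WNT5A, a ligand known mainly for signalling without β-catenin, is at chr3:55499743-55524567 (minus strand). Its level in MCF10A was 52.5 and 61.8 CPM with pCDH-empty and 71.2 and 70.4 CPM with pCDH-HOTAIR. In DCIS.COM it had 0.699 and 1.08 CPM with pCDH-empty and 0.619 and 0.805 CPM with pCDH-HOTAIR. The 4 MCF10A libraries were thus all far above the 4 of DCIS.COM, where 21 to 29 reads were counted. The log2 difference was -5.92 ± 0.21 (SE, n = 2 per group; limma adjusted p = 1.16e-07) with the empty vector and -6.51 ± 0.21 with HOTAIR (limma adjusted p = 7.72e-08).

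WNT7A, at chr3:13857755-13921568 (minus strand), had 92 and 84 reads in MCF10A pCDH-empty and 41 and 52 with pCDH-HOTAIR. DCIS.COM had 7 and 0 reads with pCDH-empty and 3 and 3 with pCDH-HOTAIR. Every MCF10A library was above every DCIS.COM library, but the DCIS.COM level was at the limit of detection. By reads per effective depth the MCF10A level was 24.7 times as high with the empty vector (95% counting interval 11.8 to 62.4) and 27.2 times with HOTAIR (12.04 to 76.1); such intervals cover counting error only. The fitted log2 difference was -4.40 ± 0.57 (limma adjusted p = 2.05e-04) and -3.93 ± 0.57 (limma adjusted p = 4.14e-04). With the empty vector it moved from -1.87 to -5.49 over the alternative fits. WNT7A was called in the 15 that kept it, and the filter at a mean CPM of 2 left it out. As the filter of the table had set the direction, these calls and the separation of the libraries add no support for it.

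WNT10A, at chr2:219745574-219764303 (plus strand), is a ligand known for its part in tooth and hair development. It had 56 and 64 reads in MCF10A pCDH-empty, 30 and 38 with pCDH-HOTAIR, and 3 to 7 in the DCIS.COM libraries. Its level in MCF10A was 19.7 times that in DCIS.COM with the empty vector (8.78 to 54.7) and 11.9 times with HOTAIR (6.11 to 26.0). WNT7B was lower in DCIS.COM by smaller amounts, from 5.70 to 7.43 CPM in MCF10A and 2.53 to 3.59 CPM in DCIS.COM, with log2 differences of -0.94 ± 0.18 and -1.29 ± 0.18. WNT10B, an activator of the β-catenin branch, went the other way. Its level was 0.802 and 0.564 CPM in MCF10A pCDH-empty, 0.619 and 0.751 CPM with pCDH-HOTAIR, 3.39 and 3.40 CPM in DCIS.COM pCDH-empty, and 2.76 and 3.40 CPM with pCDH-HOTAIR. All DCIS.COM libraries were above all MCF10A libraries, and the log2 difference was 2.22 ± 0.22 (limma adjusted p = 3.97e-05) and 2.05 ± 0.22 (limma adjusted p = 6.44e-05). WNT9A had 1.76 to 3.19 CPM in MCF10A and 2.06 to 2.46 CPM in DCIS.COM, with overlapping libraries. PORCN, the acyltransferase that attaches the lipid to Wnt proteins, was lower in DCIS.COM, with 10.4 to 12.5 CPM in MCF10A and 4.53 to 4.98 CPM in DCIS.COM (log2 differences -1.15 ± 0.11 and -1.37 ± 0.11). WLS, their carrier to the cell surface, was not called (0.22 ± 0.08 and 0.10 ± 0.08).

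**Figure D2:**
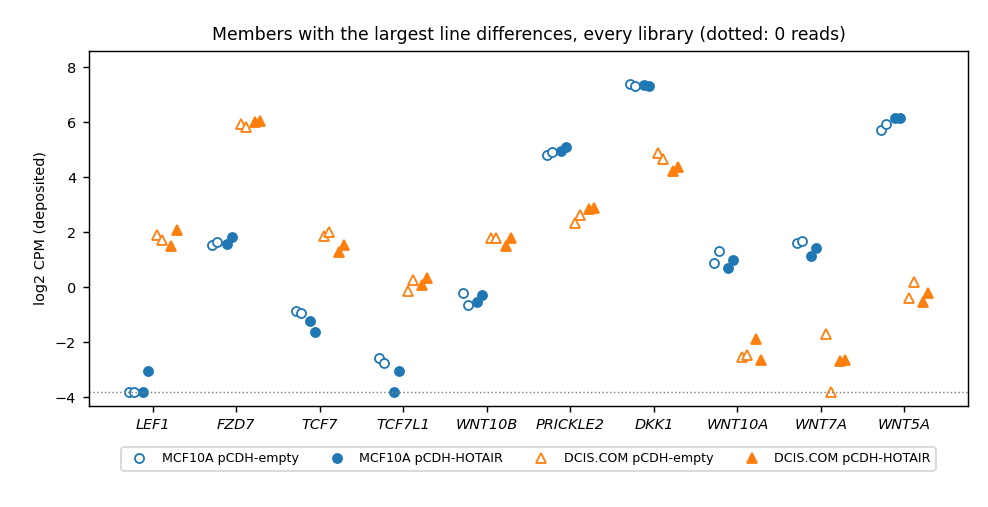
log2 CPM of the 10 genes with the largest differences between the lines in each of the 8 libraries; circles are MCF10A, triangles DCIS.COM, open marks pCDH-empty and filled marks pCDH-HOTAIR, and the dotted line is the value of 0 reads. LEF1 sits on or beside that line in MCF10A, and so do TCF7L1 in MCF10A pCDH-HOTAIR and WNT7A in DCIS.COM pCDH-empty 2.

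Of the 12 receptors, 5 were higher in DCIS.COM with both vectors and none was lower with either. FZD7, a Frizzled receptor at chr2:202898578-202903164 (plus strand), differed most. It had 2.85 and 3.04 CPM in MCF10A pCDH-empty and 2.94 and 3.45 CPM with pCDH-HOTAIR. DCIS.COM had 61.2 and 56.9 CPM with pCDH-empty and 63.9 and 65.4 CPM with pCDH-HOTAIR. The libraries of each line lay close together and the lines were far apart, with log2 differences of 4.29 ± 0.11 (limma adjusted p = 3.08e-08) and 4.31 ± 0.11 (limma adjusted p = 2.93e-08). The others were FZD8 (1.70 and 1.55), ROR1, a tyrosine kinase-like receptor of ligands such as WNT5A (1.33 and 1.08), FZD5 (1.06 and 1.48) and the co-receptor LRP6 (1.12 and 1.03, with standard errors of 0.07). In CPM, the MCF10A and DCIS.COM libraries had 19.0 to 22.1 and 58.0 to 69.5 of FZD8, 11.1 to 12.2 and 24.3 to 33.0 of ROR1, 7.80 to 8.79 and 17.9 to 22.3 of FZD5, and 39.6 to 43.0 and 83.2 to 93.2 of LRP6. None of these ranges overlapped between the lines. RYK, at 104 to 108 CPM in MCF10A and 142 to 165 CPM in DCIS.COM, passed the fold threshold with HOTAIR (0.62) and not with the empty vector (0.50), which is no test of a difference between the vectors. FZD1, FZD2, FZD3, FZD4, FZD6 and LRP5, the co-receptor closely related to LRP6, were called with neither vector, their log2 differences lying between -0.08 and 0.58. RNF43, a ligase that removes Frizzled receptors from the surface, was higher in DCIS.COM, with 10.97 to 13.77 CPM against 5.34 to 5.94 CPM in MCF10A (1.17 ± 0.13 and 1.24 ± 0.13), and its relative ZNRF3 and the R-spondin receptor LGR4 were not called.

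The 4 inhibitors were split. DKK1, a secreted antagonist that binds LRP5 and LRP6, is at chr10:54074041-54077802 (plus strand). It had 166 and 159 CPM in MCF10A pCDH-empty, 163 and 158 CPM with pCDH-HOTAIR, 29.1 and 25.1 CPM in DCIS.COM pCDH-empty and 18.6 and 20.8 CPM with pCDH-HOTAIR. All DCIS.COM libraries were below all MCF10A libraries, by log2 differences of -2.58 ± 0.09 (limma adjusted p = 1.20e-07) and -3.02 ± 0.09 (limma adjusted p = 6.19e-08). SFRP1, a secreted protein that binds Wnt ligands, was higher in DCIS.COM, with 252 to 315 CPM in the MCF10A libraries and 447 to 549 CPM in DCIS.COM (log2 differences 0.79 ± 0.08 and 0.90 ± 0.08). Of the 2 Kremen genes, which code for membrane partners of DKK1, KREMEN2 was higher in DCIS.COM (0.901 to 1.08 CPM in MCF10A, 3.51 to 4.33 CPM in DCIS.COM; log2 differences 1.82 and 1.99). KREMEN1 was lower (7.12 to 9.76 CPM in MCF10A, 5.07 to 6.59 CPM in DCIS.COM; -0.63 and -0.61), close to the fold threshold. It was called in 12 of 16 alternatives with the empty vector (-0.47 without MCF10A pCDH-empty 2) and in 13 of 16 with HOTAIR (-0.55 without DCIS.COM pCDH-HOTAIR 1). Exons of KREMEN2 overlap those of PKMYT1 on the other strand, and the use of strand in counting is not given in the sources used here.

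None of the 5 cytoplasmic genes was called with either vector. APC and AXIN1, the scaffolds of the destruction complex, had log2 differences of -0.22 and 0.12 with the empty vector and -0.25 and 0.03 with HOTAIR. DVL1, DVL2 and DVL3, which relay the signal from the receptors, lay between 0.04 and 0.51.

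All 4 nuclear factors were higher in DCIS.COM with both vectors. For LEF1, TCF7 and TCF7L1 the filter of the table had set that direction, as given above. LEF1, at chr4:108968701-109090112 (minus strand), had 0 reads in both MCF10A pCDH-empty libraries and 0 and 1 with pCDH-HOTAIR. In DCIS.COM it had 109 and 86 reads with pCDH-empty and 99 and 139 with pCDH-HOTAIR. With the empty vector its level was at least 66.0-fold higher in DCIS.COM, against a floor of 3 reads over the MCF10A group. With HOTAIR the ratio was 136, resting on 1 MCF10A read (95% counting interval 24.1 to 5376). The fitted log2 difference depends on the prior count and ranged from 2.14 to 7.63 over the alternatives with the empty vector. LEF1 was called in the 15 that kept it, and the filter at a mean CPM of 2 left it out.

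TCF7, at chr5:133450372-133487556 (plus strand), had 15 and 12 reads in MCF10A pCDH-empty, 7 and 5 with pCDH-HOTAIR, 106 and 106 in DCIS.COM pCDH-empty, and 84 and 94 with pCDH-HOTAIR. The lines did not overlap, and the ratio was 7.98 (5.33 to 12.4) with the empty vector and 8.45 (4.72 to 16.7) with HOTAIR. TCF7L1, known mainly as a repressor among these factors, is at chr2:85360515-85537510 (plus strand). It had 3 and 2 reads in MCF10A pCDH-empty, 0 and 1 with pCDH-HOTAIR, and 25 to 40 in the DCIS.COM libraries. The ratio was 11.2 (4.51 to 35.8) with the empty vector and 42.7 with HOTAIR, where it rests on 1 read (7.44 to 1709). TCF7L2, the most abundant of the 4 per length in both lines, had 2.25 to 3.72 CPM in MCF10A and 10.8 to 14.1 CPM in DCIS.COM (log2 differences 1.81 ± 0.23 and 2.12 ± 0.23). Exons of LEF1 overlap those of LEF1-AS1 and exons of TCF7 those of SKP1, both on the other strand, and how such reads were assigned is not given.

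Of the 9 planar polarity genes, 2 were higher in DCIS.COM with both vectors (the cadherin CELSR2, 1.48 and 1.45, and PRICKLE1, 0.96 and 0.89) and 3 were lower (CELSR1, PRICKLE2 and PRICKLE4). CELSR2 went from 11.9 to 15.1 CPM in MCF10A to 33.4 to 41.8 CPM in DCIS.COM, and PRICKLE1 from 16.0 to 18.8 CPM to 30.4 to 39.1 CPM. CELSR1 was at 81.5 to 94.7 CPM in MCF10A and 38.6 to 55.9 CPM in DCIS.COM, and PRICKLE4 at 4.85 to 5.32 CPM and 1.36 to 1.64 CPM. PRICKLE2, a cytoplasmic polarity protein at chr3:64077912-64431152 (minus strand), had 27.9 and 30.5 CPM in MCF10A pCDH-empty and 31.1 and 34.4 CPM with pCDH-HOTAIR. DCIS.COM had 4.92 and 6.12 CPM with pCDH-empty and 7.09 and 7.21 CPM with pCDH-HOTAIR, all below MCF10A. The log2 differences were -2.40 ± 0.12 (limma adjusted p = 9.08e-07) and -2.18 ± 0.12 (limma adjusted p = 1.60e-06). PRICKLE2 overlaps antisense genes and PRICKLE4 overlaps exons of FRS3 and of a gene on its own strand, so their counts are less certain. The same limit holds for other members whose exons overlap another gene, among them DKK1, DVL1, FZD6, FZD8, LGR4, RNF43, WLS and WNT7B. CELSR3 and the formin DAAM1 were called with 1 vector each, CELSR3 in 11 of 16 alternatives (with HOTAIR; not without MCF10A pCDH-HOTAIR 2 or DCIS.COM pCDH-HOTAIR 1, -0.62 to -0.56 over all alternatives), and PRICKLE3 and VANGL1 with neither.

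Levels of different genes were compared as CPM per kilobase of exon, as the median of the 4 libraries of a line. The lengths are of GENCODE 44 exons while the reads were counted on UCSC known genes, so the levels and their ranks are approximate. In MCF10A, DKK1 was highest at 72.5 (71.1 to 74.8), followed by SFRP1 at 57.9 (53.2 to 66.6) and FZD6 at 21.7 (21.4 to 22.4), with no overlap between these neighbours. In DCIS.COM, SFRP1 was highest at 107 (94.4 to 116), and FZD6 at 25.7 (17.97 to 27.05) and RYK at 19.6 (17.4 to 20.2) overlapped. DKK1 was at 10.3 (8.37 to 13.1) and 9th there. Among the ligands WNT5A led in MCF10A at 9.24 (7.34 to 9.95), and WNT10B in DCIS.COM at 1.30 (1.06 to 1.31). In both lines WLS led its group (8.63 and 9.67), as did LGR4 (13.7 and 17.3), DVL1 (16.4 and 18.1) and VANGL1 (8.17 and 6.87).

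The second comparison asks what the HOTAIR vector changed within each line. In MCF10A none of the 45 genes was called by limma (0.0218% of all genes were), and 2 had an unadjusted p under 0.05 (7.28% of all genes). In DCIS.COM none was called (0.0871% of all genes), and 9 had an unadjusted p under 0.05 (17.5% of all genes), 6 of them higher with HOTAIR and 3 lower. By limma-voom the count called was also 0 in both lines, with 3 and 10 members at an unadjusted p under 0.05. The median log2 difference over the members was 0.01 in MCF10A and 0.00 in DCIS.COM, against -0.01 and 0.01 over all genes. A comparison of 2 libraries with 2 cannot go below p = 0.333 in an exact permutation test, so the values below rest on the limma fit.

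**Figure D3:**
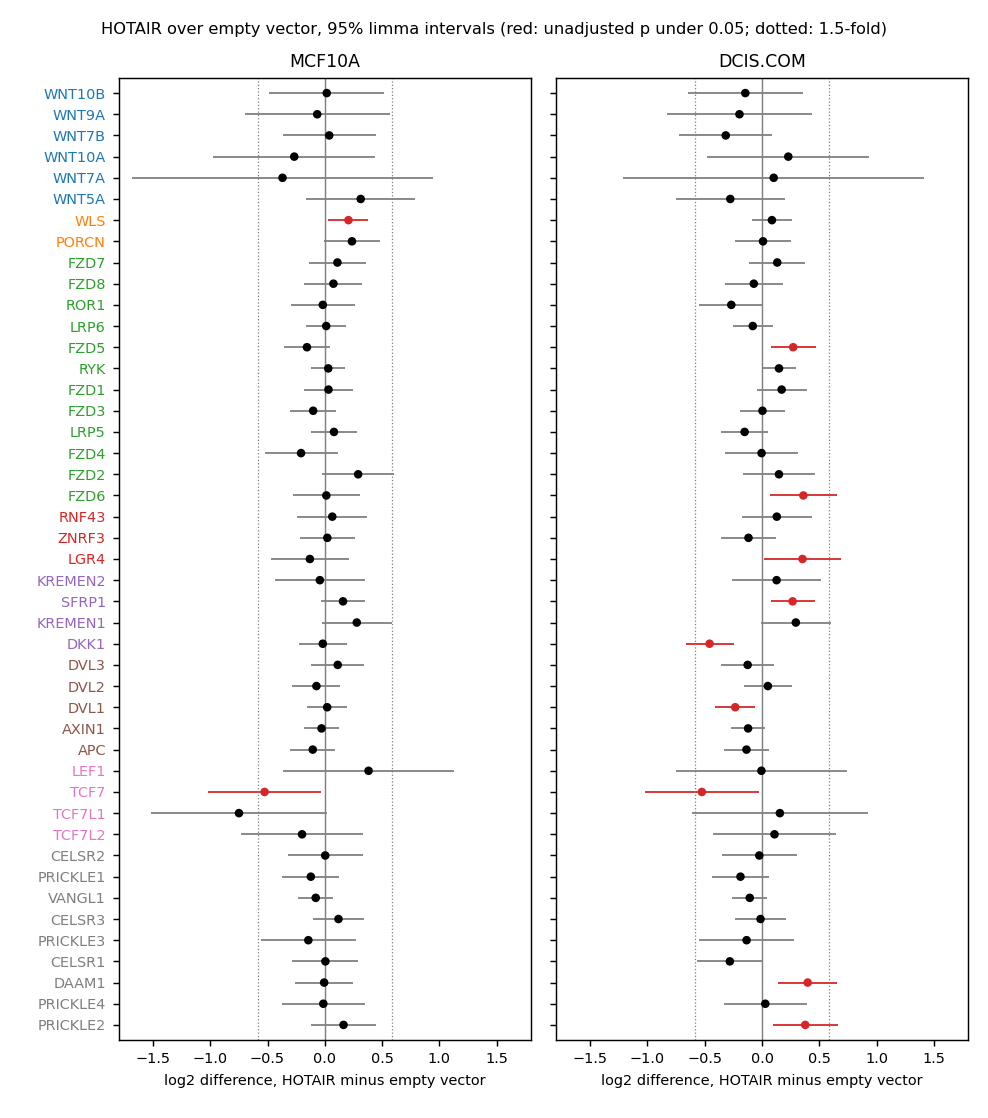
log2 difference between pCDH-HOTAIR and pCDH-empty for the 45 genes in MCF10A (left) and DCIS.COM (right), with 95% limma intervals, 2 libraries per group; red marks have an unadjusted p under 0.05 and dotted lines mark a fold of 1.5. No gene passed the adjusted threshold, and TCF7 lies at -0.53 and -0.52.

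TCF7 was below the empty vector in both lines, which use different libraries. It had 0.481 and 0.451 CPM in MCF10A pCDH-empty against 0.361 and 0.250 CPM with pCDH-HOTAIR, on 5 to 15 reads. In DCIS.COM it had 3.53 and 3.95 CPM against 2.36 and 2.80 CPM. TCF7 was picked by its unadjusted p, so the separation of its groups is no further support. The log2 differences were -0.53 ± 0.21 (limma adjusted p = 0.641) and -0.52 ± 0.21 (limma adjusted p = 0.276). In MCF10A the value of TCF7 was -0.31 without pCDH-HOTAIR 2 and -0.74 without pCDH-HOTAIR 1. In MCF10A the other gene was WLS, with 34.8 and 37.3 CPM against 39.7 and 43.6 CPM (0.21 ± 0.08, limma adjusted p = 0.586). COL1A1 and COL1A2 moved beside them in that line, with log2 differences of 0.90 and 0.93 (limma adjusted p = 0.360 and 0.557), and their part was not tested.

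DKK1 had the smallest p of the members in DCIS.COM. As given above, its pCDH-HOTAIR libraries were both below the pCDH-empty ones there, while in MCF10A the vectors overlapped. The log2 difference was -0.46 ± 0.09 (95% interval -0.67 to -0.25, limma adjusted p = 0.138). DVL1, with 82.2 and 73.5 CPM against 65.0 and 67.3 CPM, had -0.23 ± 0.08. The receptor FZD5 had 18.6 and 17.9 CPM against 22.3 and 21.9 CPM (0.27 ± 0.09), and SFRP1 had 447 and 464 CPM against 549 and 547 CPM (0.27 ± 0.08). DAAM1, which links the receptors to actin, had 9.48 and 9.18 CPM against 12.9 and 11.8 CPM (0.40 ± 0.11), and PRICKLE2 was at 0.38 ± 0.12. These genes were picked by their unadjusted p, so the separation of the 2 vectors seen in each is no further support. None passed the adjusted threshold (limma adjusted p = 0.221 to 0.240 for the 5 genes after DKK1). Without DCIS.COM pCDH-empty 2, the library with the highest share of RN7SL reads is left as the only baseline. The log2 differences without pCDH-empty 1 and without pCDH-empty 2 were -0.35 and -0.56 for DKK1 and -0.15 and -0.31 for DVL1. They were 0.22 and 0.53 for PRICKLE2, 0.24 and 0.30 for SFRP1, 0.42 and 0.38 for DAAM1, and 0.30 and 0.25 for FZD5. The fold of each stayed under 1.5. Over the alternatives, which include fits with a library left out, the limma adjusted p of these 6 genes varied widely. It reached 0.690 for each, and for all but FZD5 it fell under 0.05 in at least 1 alternative.

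FZD6 and LGR4 depended on 1 library. FZD6 had 73.0 CPM in DCIS.COM pCDH-empty 1 and 99.7 CPM in pCDH-empty 2, against 109 and 110 CPM with pCDH-HOTAIR. LGR4 had 73.8 and 107 CPM against 113 and 114 CPM. The first of the empty-vector libraries was low for both genes, and it is the library with the highest share of RN7SL reads; the part of this in the result was not tested. The log2 difference of FZD6 was 0.36 ± 0.13 with both libraries, 0.14 without pCDH-empty 1 and 0.59 without pCDH-empty 2, and that of LGR4 was 0.35 ± 0.15, 0.09 and 0.62. WNT7A, which had 7 reads in pCDH-empty 1 and 0 in pCDH-empty 2, changed sign with the library left out. Its log2 difference was 0.10 with both libraries and 1.145 without pCDH-empty 1. In the fit without pCDH-empty 2 it was -0.94. In that fit 10.2% of all genes were called. PRICKLE2 moved from 0.38 to 0.22 without pCDH-empty 1, and DVL1 from -0.23 to -0.15.

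The test of the difference between the lines in the HOTAIR effect called none of the 45 genes by limma (0.0436% of all genes), and 5 had an unadjusted p under 0.05 (10.5% of all genes; 5 by limma-voom also). DKK1 differed by -0.44 ± 0.13 (DCIS.COM minus MCF10A, limma adjusted p = 0.397) and FZD5 by 0.43 ± 0.12 (limma adjusted p = 0.389). The others were LGR4 (0.48 ± 0.21), DAAM1 (0.40 ± 0.16) and DVL1 (-0.25 ± 0.11). The value of LGR4 was 0.22 without DCIS.COM pCDH-empty 1 and 0.75 without pCDH-empty 2. Without pCDH-empty 2, 10 members were called here, among them DKK1, FZD5, LGR4 and DVL1, as were 32.1% of all genes.

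Of the other genes of the pathway fixed as a list, 40 were in the table. In the line comparison 12 were higher and 5 lower with the empty vector (22.5% and 23.8% of all genes), and 11 and 7 with HOTAIR (22% and 21.7%). CTNNB1, the gene of β-catenin, was higher in DCIS.COM (1.33 ± 0.07 and 1.35 ± 0.07), as were CTNNBIP1, an inhibitor of its binding to the TCF factors (1.33 and 1.54) and the co-repressor TLE4 (1.78 and 1.75). The glypican GPC4 had 0 reads in the MCF10A libraries, so that the filter kept it through DCIS.COM alone. It was at least 158-fold higher in DCIS.COM with the empty vector and at least 120-fold with HOTAIR, against 3 reads over the MCF10A group. Among those lower in DCIS.COM was FUZ (-4.33 with each vector, with as few as 6 reads). Its mean log2 CPM in DCIS.COM was -1.525 with pCDH-empty and -1.489 with pCDH-HOTAIR. It lay under 0.5 CPM there, so that the filter kept FUZ through MCF10A alone and set its direction. CSNK1E was also lower (mean log2 CPM with the empty vector 7.14 in MCF10A and 5.74 in DCIS.COM), as was TPBG (6.735 and 5.541). GSK3B, a kinase of the destruction complex, was not called (-0.31 and -0.24). No gene of this list was called for HOTAIR by limma in either line, and 2 in MCF10A and 7 in DCIS.COM had an unadjusted p under 0.05 (7.28% and 17.5% of all genes).

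Of 24 β-catenin target genes in the table, 11 were higher and 9 lower in DCIS.COM with the empty vector, and 10 and 10 with HOTAIR, against the same shares of all genes as above (22.5% and 23.8%, 22% and 21.7%). Among those lower were MYC (-0.88 ± 0.11 and -1.38 ± 0.11) and CCND1 (-0.63 ± 0.06 and -0.75 ± 0.06), and among those higher CD44 (1.09 ± 0.10 and 0.82 ± 0.10) and BIRC5 (1.14 ± 0.08 and 1.26 ± 0.08). For HOTAIR, none of the 24 was called by limma in either line, with 7 in MCF10A and 6 in DCIS.COM at an unadjusted p under 0.05 (7.28% and 17.5% of all genes).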

How the data were processed

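RNA-seq was measured in 8 libraries, 2 for each cell line and vector, grouped by their labels. The authors aligned paired-end ScriptSeq reads to hg19 with Rsubread, counted them on UCSC known genes with featureCounts and deposited log2 CPM values normalised with edgeR, for 13771 genes with a CPM above 0.5 in at least 2 libraries (343 without a symbol). Use of strand and assignment of overlapping genes are not given in the sources used here.

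Whole reads were recovered from the steps of the values (100% within 0.01 of a whole number), giving 19306864 to 34884841 reads per library, which limit precision for genes with few reads. Differences were fitted with limma 3.58.1 in R 4.3.3 (4 group means, all 8 libraries, eBayes with trend) and adjusted by Benjamini-Hochberg over all genes. Genes were called at adjusted p under 0.05 and a fold of at least 1.5 (no fold threshold for the difference between the lines in the HOTAIR effect). The fits were tested on simulated data. Read ratios have exact conditional 95% intervals. Alternatives covered scaling, filter, pseudocount, trend, limma-voom, fold threshold, replicate block and each library left out.

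Exon lengths and positions came from GENCODE 44 on GRCh37, the same assembly as hg19, because the table has no length column. Promoter windows came from RefSeq (table build GRCh38.p14) and were placed on GRCh37 by exact match. Genes were named by a rule: HOTAIR, members with an unadjusted p under 0.05 for HOTAIR in either line, members called in the line comparison with both vectors in the same direction and a log2 difference of at least 2 in size in both, and the highest member per length of each role. Other members and list genes named as examples were chosen after their values were seen. The members and lists were chosen with earlier results of these data known.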

Additional observations from a re-analysis of the deposited data

How the results depend on the processing

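The alternatives to the reported fits were median centring, quantile normalization, a filter at a mean CPM of 2 (12222 genes and 39 members left), log2(CPM + 1), no mean-variance trend, limma-voom on recovered reads, a replicate block, separate fits, other fold thresholds and each library left out. No called difference between the lines changed sign in any of them. Differences near 0 that were not called did, such as DVL1 with HOTAIR (-0.01 to 0.10) and FZD2 with HOTAIR (-0.19 to 0.03). KREMEN1 and CELSR3 lost their call in some, as given with their values. At a log2 difference of at least 1.5 in size, the members called between the lines were 14 with the empty vector and 14 with HOTAIR, from 26 and 27. With a library left out these counts ran from 25 to 27 and from 26 to 30. With a library left out, HOTAIR in MCF10A called 0 members throughout, HOTAIR in DCIS.COM 0 to 3 and the difference between the lines in the HOTAIR effect 0 to 10. A library left alone in its group was assumed to vary like the other groups. The 3 and the 10 came without DCIS.COM pCDH-empty replicate 2, and the cause was not tested. Replicate numbers did not pair the samples (correlations of deviations between groups from -0.042 to 0.033), and the replicate block gave 26 and 27 members between the lines and 0 in the other comparisons. Depth limits LEF1, TCF7 and TCF7L1 in MCF10A and WNT7A and WNT10A in DCIS.COM.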
